A study of Mus musculus with 4 samples.

Results

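The genes described here encode the pyruvate dehydrogenase complex and its kinases and phosphatases, the mitochondrial pyruvate carrier, the enzymes of the tricarboxylic acid (TCA) cycle and a few close relatives. There are 31 of them among 21887 protein-coding genes. They were listed by function, with earlier results of these data known. Each was scored for a Flag ChIP peak summit no more than 1000 bp from an end of the gene at its mm10 bounds. ChIP-seq, in which chromatin pulled down by an antibody, here against Flag, is sequenced, was applied to lineage-negative cells of bone marrow, the marrow fraction that holds stem and progenitor cells after cells with mature-lineage surface markers are taken away. All cells came from 8-week-old C57BL/6 mice of genotype 3xFlag-Nynrin-Tg, which carry a transgene for Nynrin with 3 Flag tags. The sources used here do not name the promoter that drives the transgene, nor do they say whether animals were pooled. The series has 2 Flag ChIP libraries, called replicates 1 and 2, and 2 input libraries of unprecipitated chromatin. A peak list from each Flag ChIP library was analysed. The input libraries were not analysed here, and no untagged or control-antibody library was used. A peak list measures no expression, so the cell identity given in the labels could not be checked against marker genes.

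Pyruvate dehydrogenase turns pyruvate from glycolysis into acetyl-CoA inside mitochondria. Its kinases phosphorylate and switch off the complex, and its phosphatases switch it on again. The TCA cycle then oxidises acetyl-CoA and feeds electrons to the respiratory chain. Quiescent blood stem cells of mice are known for leaning on glycolysis, and loss of the kinases Pdk2 and Pdk4 together has been reported to disturb their quiescence. The series title names Nynrin, stem cell function and the mitochondrial permeability transition pore, and its design text names promoter binding sites. Which genes of mitochondrial fuel use carry a Flag-Nynrin peak at an end is the question asked here.

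Most of these genes had a Flag-Nynrin peak at an end in both replicates. A gene with a summit in reach in both lists is termed called. Of the 31 genes, 24 (77.4%, exact Clopper-Pearson 95% interval 58.9 to 90.4%, which covers the sampling of genes only) were called, against 31.9% of all protein-coding genes. Replicate 1 had a summit at 24 of the 31, against 32.6% of all genes, and replicate 2 at 29, against 45.5%. No member had a summit in replicate 1 alone, a class that held 0.672% of all genes. In replicate 2 alone there were 5 members (Pdha1, Pdk2, Pdk3, Pdp2 and Suclg2), a class that held 13.6% of all genes. By this rule Pdk4 and Idh2 had none in either list, as had 53.8% of all genes. The lists differ in length, with 12702 peaks in replicate 1 and 25787 in replicate 2 on chromosomes 1 to 19, X and Y. They hold no read counts, so the depth behind a peak is unknown. Counted by start sites alone, 22 of 28 members were called, against 34.5% of the 17492 genes with a listed start. Counted by any base of the peak, 24 of 31 were, against 33.7%, and with the lists cut to equal length 23, against 30.1%. With a fold enrichment of at least 5 in both lists 6 were, against 9.52%, namely Dlst, Idh3a, Me2, Pdhx, Dld and Idh3g. The summits of Dlst, Pdhx and Idh3g were also in reach of another gene. No test of the members as a set was run, and the 2 libraries are not stated to come from separate animals. The members were not a random sample of genes and were chosen with earlier results known, so the interval is only a description.

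**Figure D1:**
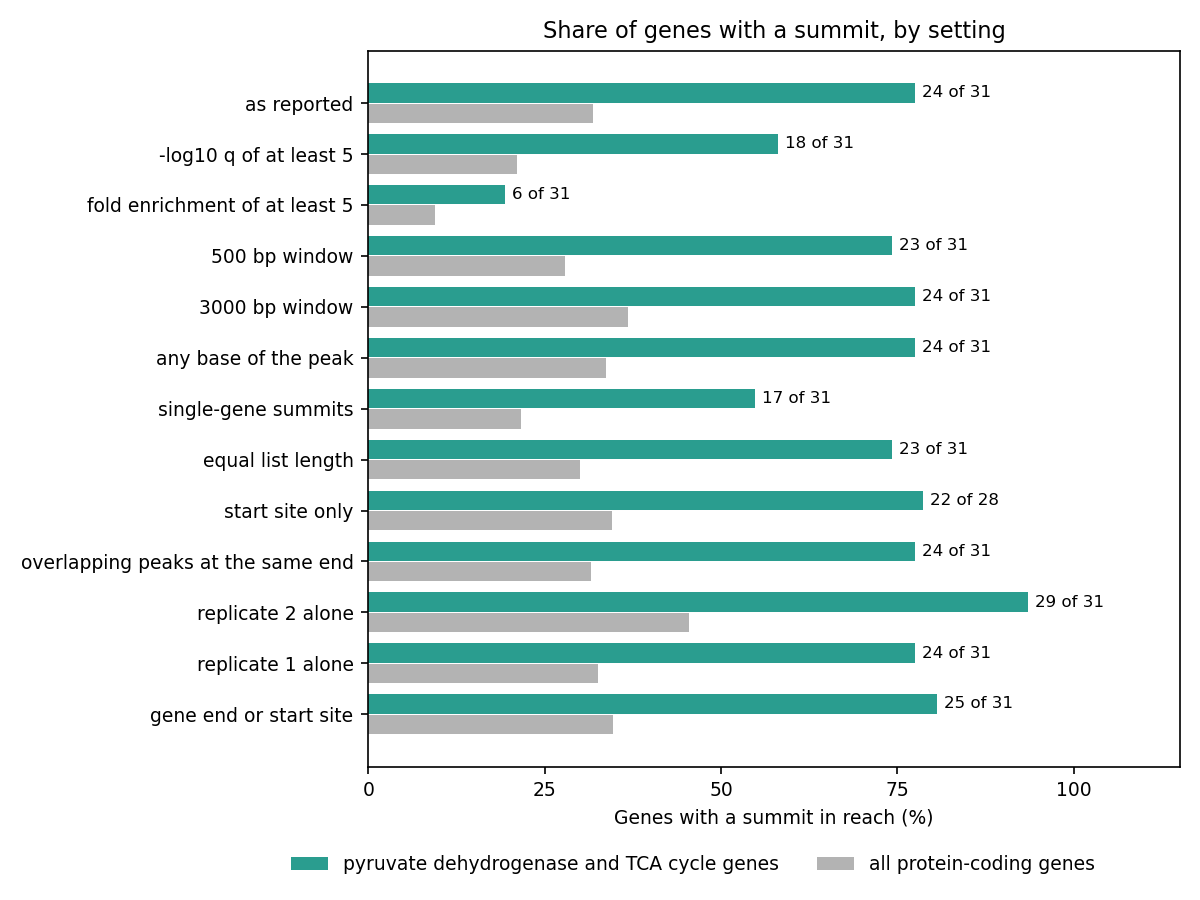
Share of genes with a summit in reach (percent, horizontal axis) in the 31 pyruvate dehydrogenase and TCA cycle genes (green) and in all protein-coding genes (grey), under each setting on the vertical axis. Bars start at 0 and the counts of members are printed. As reported, 24 of 31 members are called against 31.9% of all genes, and with a fold enrichment of at least 5 in both lists 6 members are.

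The peaks sat at the starts of the genes. Start sites and strand were known from the RefSeq promoter table (GRCm38.p6, the assembly behind mm10) for 28 of the 31 members, and Pdp1, Idh3a and Me2 were not in it. All 21 called members with a known strand had their strongest summit nearer the 5′ end than the 3′ end in both replicates. Over all 5768 called genes with a known strand this share was 95.4% in replicate 1 and 96.1% in replicate 2. The median distance from summit to the nearest annotated start was 116 bp in replicate 1 and 145 bp in replicate 2 for the members, and 128 and 120 bp for all called genes. Summits within 250 bp of a start numbered 18 of 21 members (85.7%) in replicate 1 and 19 of 21 (90.5%) in replicate 2, against 73.8% and 76.4% of all called genes. The summit was downstream of the start for 11 of 21 members (52.4%) in replicate 1 and for 9 of 21 (42.9%) in replicate 2. Over all called genes these shares were 40.8% and 38.9%. At all 24 called members the strongest peaks of the replicates overlapped, as they did at 6767 of all 6981 called genes. The summits were a median of 77.5 bp apart, against 106 bp for all called genes. The call uses a 1000 bp limit. The called member farthest from its gene end was Mpc2, at 629 bp in replicate 1 and 449 bp in replicate 2, and among members not called in either list the nearest summits were those of Idh2, at 3428 and 3614 bp.

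**Figure D2:**
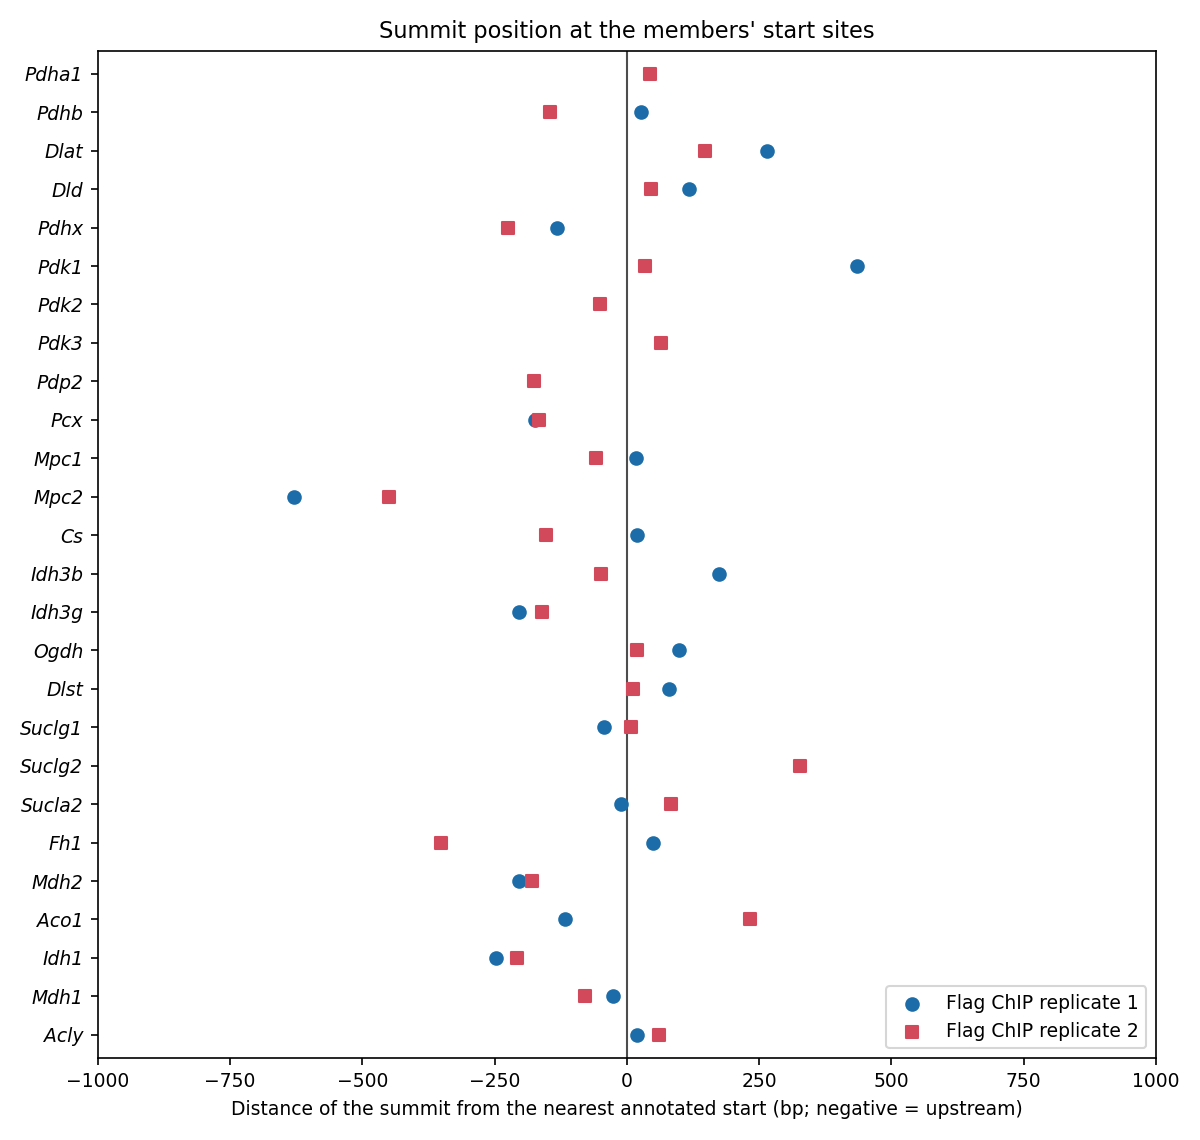
Distance in bp of each member's strongest summit in reach from the nearest annotated start (horizontal axis, negative is upstream), for the members on the vertical axis that have a known start and a summit in reach. Blue circles are Flag ChIP replicate 1 and red squares replicate 2. Most points lie within 250 bp of the start, and Mpc2 lies farthest upstream at 629 and 449 bp.

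The core of the pyruvate dehydrogenase complex was called at 4 of 5 genes, against 31.9% of all genes. A group of 5 is too small to read a difference from. Fold enrichment, used below, is the authors' value for a peak over the caller's background, and a percentile rank is the place of that value within its own list, where 100 is the highest. Pdhx, whose product tethers the E3 subunit to the core, had a fold enrichment of 5.65 in replicate 1 (−log10 q 12.9, percentile 86.7) and 9.03 in replicate 2 (−log10 q 20.9, percentile 91.2). Dld, the E3 subunit that this complex shares with the oxoglutarate dehydrogenase complex, had 5.35 (−log10 q 7.56, percentile 83.0) and 7.17 (−log10 q 14.0, percentile 80.9). Both genes ranked high in both lists. Dlat, the E2 acetyltransferase, had lower ranks, with fold enrichments of 3.70 and 4.78 and percentiles of 36.3 and 52.8. Pdhb, the E1 beta subunit, was near the bottom of replicate 1 (3.05, −log10 q 3.56, percentile 10.8) and near the top of replicate 2 (9.03, percentile 91.2). Pdha1, the E1 alpha subunit on which the kinases act, had a peak in replicate 2 alone. It ran from 160137765 to 160138556 on chromosome X, with its summit 44 bp inside the 5′ end, a fold enrichment of 4.03, a −log10 q of 4.66 and a percentile of 35.5. In replicate 1 the nearest summit to an end of Pdha1 was 589463 bp away.

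Among the regulators of the complex 1 of 4 kinases and 1 of 2 phosphatases were called, against 31.9% of all genes, and these groups are too small to read a difference from. Pdk1 was the called kinase, with a fold enrichment of 3.39 in replicate 1 (−log10 q 3.99, percentile 22.6) and 8.24 in replicate 2 (−log10 q 17.8, percentile 87.4). Its summits were 401 bp apart. Pdk2 had a summit in replicate 2 alone, 51 bp upstream of its first start, with a fold enrichment of 5.85, a −log10 q of 9.49 and a percentile of 69.0, and in replicate 1 the nearest summit to an end was at 47109 bp. Pdk3 likewise had a summit in replicate 2 alone, 65 bp downstream of its start (4.52, −log10 q 5.49, percentile 47.2), with the nearest replicate 1 summit at 290219 bp. Pdk4 was the only one of the 31 genes with no summit within 1000 bp of an end or a start in either list. Its nearest summits were 185416 bp from a gene end in replicate 1 and 185854 bp in replicate 2. Of the phosphatases, Pdp1 was called, with 4.07 (percentile 51.2) and 10.1 (percentile 94.9), 102 and 19 bp beyond its higher-coordinate end. Pdp2 had a summit in replicate 2 alone, 175 bp upstream of its start (6.11, −log10 q 10.4, percentile 71.9), and in replicate 1 the nearest was 42534 bp from an end.

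The windows around the starts of 3 kinase genes are shown because they stand at the 3 levels of the call, Pdk1 in both replicates, Pdk2 in replicate 2 alone and Pdk4 in neither. Each runs from 250 bases before the first annotated start to the first 50 bases of the transcript, 5′ to 3′ on the gene's strand, from RefSeq on GRCm38.p6. The Pdk1 window is chr2:71872974-71873273 on the plus strand, the Pdk2 window chr11:95041322-95041621 on the minus strand and the Pdk4 window chr6:5496229-5496528 on the minus strand. Capitals mark exact matches, on either strand, to the motifs defined with the promoter results below. They are the CCAAT box, read as ATTGG on the other strand, and in Pdk2 also the E-box CACGTG. The Pdk1 window has none of the motifs searched, the Pdk2 window has 3 CCAAT boxes and the Pdk4 window has 1. The replicate 1 peak of Pdk1, from 71873507 to 71873791, lies wholly downstream of the window shown.
Pdk1: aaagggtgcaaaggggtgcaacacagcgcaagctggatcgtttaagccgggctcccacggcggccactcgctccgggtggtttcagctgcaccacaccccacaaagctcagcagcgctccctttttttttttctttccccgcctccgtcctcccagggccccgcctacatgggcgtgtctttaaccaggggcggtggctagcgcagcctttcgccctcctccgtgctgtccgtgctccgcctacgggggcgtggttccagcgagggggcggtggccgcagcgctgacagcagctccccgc
Pdk2: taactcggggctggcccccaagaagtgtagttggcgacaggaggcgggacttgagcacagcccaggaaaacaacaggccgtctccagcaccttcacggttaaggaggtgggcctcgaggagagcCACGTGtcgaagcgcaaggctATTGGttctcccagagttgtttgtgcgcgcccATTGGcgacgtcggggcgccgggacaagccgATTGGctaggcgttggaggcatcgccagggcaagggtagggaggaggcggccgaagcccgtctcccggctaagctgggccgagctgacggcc
Pdk4: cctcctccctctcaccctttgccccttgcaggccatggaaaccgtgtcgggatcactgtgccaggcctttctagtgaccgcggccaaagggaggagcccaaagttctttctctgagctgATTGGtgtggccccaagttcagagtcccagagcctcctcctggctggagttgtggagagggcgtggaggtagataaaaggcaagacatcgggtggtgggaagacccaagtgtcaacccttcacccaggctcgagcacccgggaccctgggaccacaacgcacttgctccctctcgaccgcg

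Genes that bring pyruvate into mitochondria and carboxylate it were called at 3 of 3, against 31.9% of all genes. This group too is too small to read a difference from. Mpc1 and Mpc2 encode the 2 subunits of the mitochondrial pyruvate carrier, and Pcx encodes pyruvate carboxylase, which makes oxaloacetate. Mpc1 had a fold enrichment of 3.36 in replicate 1 (percentile 21.3) and 9.03 in replicate 2 (percentile 91.2). Mpc2 had 3.09 (percentile 12.4) and 11.7 (percentile 97.7), with the widest peak of any called member, 2753 bp in replicate 2. Pcx had 3.31 (percentile 19.3) and 10.9 (percentile 96.7), and its summits were 7 bp apart. All 3 thus ranked low in replicate 1 and high in replicate 2. Pcx has a second annotated start 83847 bp downstream of the first. Summits lay 173 and 166 bp from the first start, and the nearest to the second start was 31268 bp away in replicate 1 and 31342 bp in replicate 2.

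The mitochondrial enzymes of the cycle were called at 10 of 12 genes, against 31.9% of all genes. Dlst, the E2 subunit of the oxoglutarate dehydrogenase complex, ranked highest of all 31 genes by the lower of its percentiles. Its fold enrichment was 7.0 in replicate 1 (−log10 q 12.7, percentile 96.4) and 10.4 in replicate 2 (−log10 q 26.1, percentile 95.6), with summits 80 and 11 bp downstream of its start. Both summits were also in reach of Prox2, so these values cannot be assigned to Dlst alone. Ogdh, the E1 subunit of the same complex, had the highest value of any member in replicate 2, a fold enrichment of 16.2 with a −log10 q of 52.1. That placed it 18th among the 25787 peaks, level with 2 others. In replicate 1 it had 3.30, at percentile 18.9. Together with Dld, all 3 subunit genes of this complex were called, and their order differed between the lists.

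The Dlst and Ogdh windows are shown as those of the highest-ranking member and of the highest value in replicate 2, and the Cs window because citrate synthase opens the cycle. They lie at chr12:85110583-85110882 on the plus strand, chr11:6291347-6291646 on the plus strand and chr10:128337477-128337776 on the plus strand. Capitals again mark motif matches. In Dlst these are the ETS motif CCGGAAG, read as CTTCCGG, and the SP/KLF motif GGGCGGG, read as CCCGCCC. In Ogdh they are CCAAT boxes, a CRE (TGACGTCA) and GGGCGGG, and in Cs 2 CCAAT boxes and 3 matches to GGGCGGG.
Dlst: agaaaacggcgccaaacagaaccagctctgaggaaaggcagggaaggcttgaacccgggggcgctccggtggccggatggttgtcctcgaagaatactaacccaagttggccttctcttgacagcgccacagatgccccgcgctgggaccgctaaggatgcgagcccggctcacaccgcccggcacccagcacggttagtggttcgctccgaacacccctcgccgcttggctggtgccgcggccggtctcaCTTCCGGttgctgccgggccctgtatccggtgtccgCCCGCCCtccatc
Ogdh: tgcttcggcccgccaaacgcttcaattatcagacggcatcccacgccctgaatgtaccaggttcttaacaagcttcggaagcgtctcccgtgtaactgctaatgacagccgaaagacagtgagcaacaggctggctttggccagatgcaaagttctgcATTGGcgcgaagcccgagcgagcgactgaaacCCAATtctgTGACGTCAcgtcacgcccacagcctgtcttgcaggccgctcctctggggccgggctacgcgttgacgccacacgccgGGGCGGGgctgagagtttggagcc
Cs: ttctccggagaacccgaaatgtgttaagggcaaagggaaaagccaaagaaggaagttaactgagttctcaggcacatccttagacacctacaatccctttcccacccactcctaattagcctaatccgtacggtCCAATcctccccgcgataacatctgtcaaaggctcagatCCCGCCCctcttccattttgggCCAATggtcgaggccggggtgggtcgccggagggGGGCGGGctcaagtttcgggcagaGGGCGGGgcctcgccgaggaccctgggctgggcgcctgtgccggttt

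Of the other cycle enzymes, Cs had fold enrichments of 4.69 in replicate 1 (−log10 q 7.80, percentile 69.6) and 9.30 in replicate 2 (−log10 q 21.9, percentile 92.3). The 3 subunit genes of the NAD-dependent isocitrate dehydrogenase were all called. Idh3a, the catalytic alpha subunit, had 6.72 (−log10 q 15.0, percentile 95.3) and 8.77 (−log10 q 19.8, percentile 90.0), and Idh3g, the gamma subunit, 5.53 (−log10 q 9.53, percentile 85.4) and 6.64 (−log10 q 12.1, percentile 76.8). Idh3b ranked below them, with 3.76 (percentile 38.4) and 5.31 (percentile 62.2). Mdh2, the mitochondrial malate dehydrogenase, had 4.68 (−log10 q 8.65, percentile 69.5) and 11.7 (−log10 q 31.6, percentile 97.9), and Fh1, fumarate hydratase, had 4.41 (percentile 61.7) and 5.36 (percentile 63.7). Fh1 had summits 402 bp apart, the most of any called member, and they fell 50 bp inside the gene in replicate 1 and 352 bp upstream in replicate 2.

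Succinyl-CoA ligase, which makes ATP or GTP from succinyl-CoA, pairs the alpha subunit from Suclg1 with the ADP-using beta subunit from Sucla2 or the GDP-using one from Suclg2. Sucla2 was called, with 4.48 in replicate 1 (−log10 q 7.33, percentile 63.5) and 7.71 in replicate 2 (−log10 q 15.9, percentile 84.5). Suclg1 was also called but had the lowest fold enrichment of any called member in replicate 1, 2.92 at percentile 7.16, with 5.27 at percentile 60.6 in replicate 2. Suclg2 had a summit in replicate 2 alone, 328 bp downstream of its start, with the lowest rank of any member there (3.45, −log10 q 2.76, percentile 14.5), and the nearest in replicate 1 was 355252 bp from an end. The ADP-using beta subunit gene therefore ranked above the GDP-using one in replicate 2 and was the only one of that pair with a summit in replicate 1.

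Idh2, the mitochondrial NADP-dependent isocitrate dehydrogenase, was not called by gene ends, but both lists had a peak at its start. The listed bounds of Idh2, 80094845 to 80118608 on chromosome 7, reach 3258 bp beyond the start site in the promoter table. At that start, replicate 1 had a peak from 80115148 to 80115389 with its summit 170 bp downstream (3.32, −log10 q 3.44, percentile 19.6). Replicate 2 had one from 80114564 to 80115565, 356 bp downstream (6.11, −log10 q 10.4, percentile 71.9), and the peaks overlapped. With starts counted as well as gene ends, which was added after seeing the data, 25 of 31 members were called against 34.6% of all genes. The Idh2 window, chr7:80115301-80115600 on the minus strand, is shown since both peaks reach into it, and the capitals mark its single CCAAT box.
Idh2: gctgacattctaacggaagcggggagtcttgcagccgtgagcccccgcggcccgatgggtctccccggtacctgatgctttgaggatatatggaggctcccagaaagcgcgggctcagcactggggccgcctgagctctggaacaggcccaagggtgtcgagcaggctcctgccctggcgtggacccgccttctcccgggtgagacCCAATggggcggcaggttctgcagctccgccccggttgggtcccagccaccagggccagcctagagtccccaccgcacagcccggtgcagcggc

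The cytosolic relatives, the citrate-using enzyme and the malic enzyme were called at 5 of 5 genes, against 31.9% of all genes. With 5 genes no difference can be read from this share. Me2, the mitochondrial NAD-dependent malic enzyme, had the highest fold enrichment of any member in replicate 1, 7.90 (−log10 q 16.1, percentile 98.6), and 8.77 (−log10 q 19.8, percentile 90.0) in replicate 2. Mdh1, the cytosolic malate dehydrogenase, had 4.73 (−log10 q 8.17, percentile 70.5) and 7.37 (−log10 q 16.1, percentile 82.1), and Idh1, the cytosolic and peroxisomal isocitrate dehydrogenase, 4.48 (percentile 63.5) and 8.50 (percentile 88.7). Acly, which splits citrate into cytosolic acetyl-CoA and oxaloacetate, had 3.74 (percentile 38.0) and 9.03 (percentile 91.2). Aco1, the cytosolic aconitase that also acts as an iron-regulatory protein, ranked lowest of the 5, with 3.45 (percentile 25.6) and 5.05 (percentile 57.9). Idh1 has a second annotated start 7337 bp downstream of the first, and both lists had a peak there too. The nearest summit was 78 bp from it in replicate 1 (3.72, percentile 37.3) and 721 bp from it in replicate 2 (7.44, percentile 82.8), where the peak was 1985 bp wide.

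**Figure D3:**
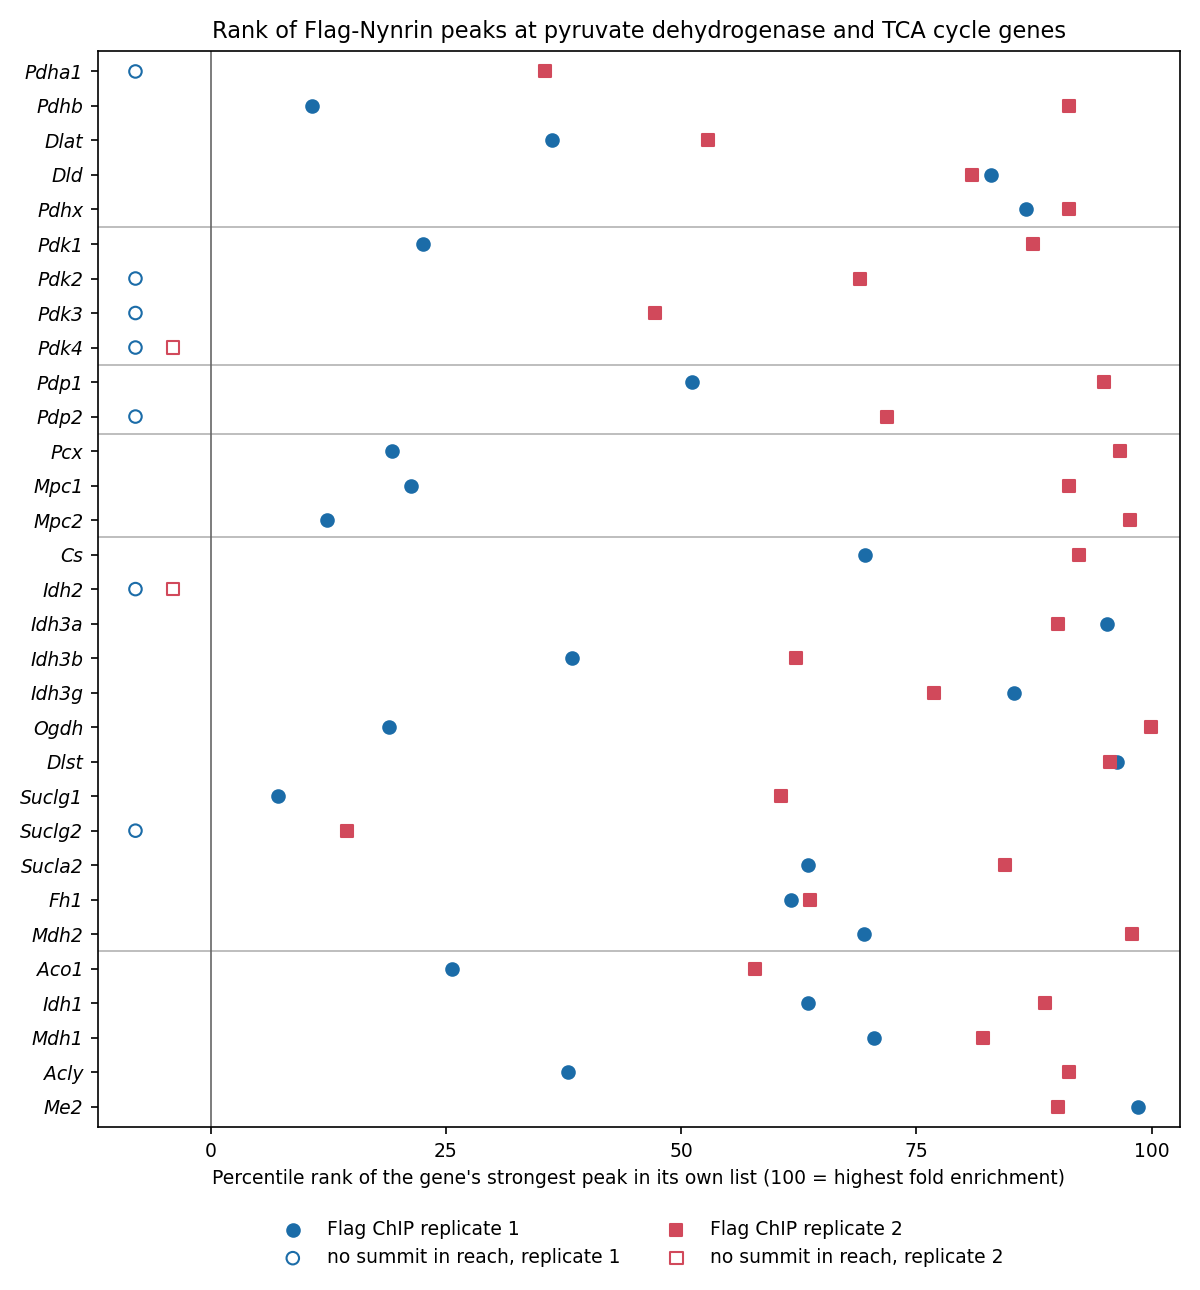
Percentile rank of each member's strongest peak in reach within its own peak list (horizontal axis, 100 is the highest fold enrichment). Members run down the vertical axis by role, with grey lines between the complex core, kinases, phosphatases, pyruvate entry, mitochondrial cycle enzymes and other enzymes. Blue circles are replicate 1, red squares replicate 2, and open symbols left of 0 mark no summit in reach. Dlst, Idh3a and Me2 are at percentile 90.0 or above in both lists, and Ogdh, Pcx, Mpc1, Mpc2 and Pdhb are below 25 in replicate 1 and above 90 in replicate 2.

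Among themselves the 24 called members spread over nearly the whole of replicate 1 and the upper part of replicate 2. Percentiles ran from 7.16 to 98.6 with a median of 56.4 in replicate 1, and from 52.8 to 99.9 with a median of 90.0 in replicate 2. Over all 6981 called genes the medians were 58.95 and 85.4. Median fold enrichment was 4.24 in replicate 1 and 8.77 in replicate 2 for the members, and 4.29 and 7.94 for all called genes. The percentile was higher in replicate 2 for 19 of 24 members (79.2%), and for 79.5% of all called genes. The order of the members was not shared between the lists. Spearman's rho of fold enrichment was -0.04 over the 24 called members and 0.34 over the 6981 called genes, as a description over genes that share 2 libraries. Many replicate 2 peaks have equal values. Pdhb, Pdhx, Mpc1 and Acly all had 9.03, a value held by 235 peaks of that list. Peaks were wider in replicate 2 at 22 of 24 members, and at 6411 of the 6981 called genes. Median widths were 712 bp in replicate 1 and 1376 bp in replicate 2, against 661 and 1251 bp over all called genes. The 5 members with a summit in replicate 2 alone had a median percentile there of 47.2, against 52.8 for all 2973 genes of that class.

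A summit between close neighbours calls both genes. This held for 7 of the 24 called members (29.2%), against 33.3% of all called genes. For 6 of them the neighbour starts on the opposite strand and points away, with start sites 126 to 797 bp apart. These pairs were Idh3g with Ssr4, Pdhx with Apip, Idh1 with Pikfyve, Mdh2 with Styxl1, Mdh1 with Wdpcp and Mpc2 with Dcaf6. At the Mdh1 and Wdpcp pair the summits were 27 and 79 bp from the Mdh1 start and 8 and 44 bp from the end of Wdpcp. The seventh was Dlst, whose summits were 28 and 41 bp from an end of Prox2, a gene with its nearest listed start 4402 bp away. When only summits in reach of a single gene were counted, 17 members were called, against 21.7% of all genes. The peak lists cannot tell which gene of such a pair a peak belongs to.

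Pdha1, Pdk3 and Idh3g are on the X chromosome, where peaks were few. Replicate 1 had 70 peaks there and replicate 2 had 242. Of the 966 protein-coding genes of the X chromosome, 4.97% were called, against 33.1% of genes elsewhere. In replicate 1 the share with a summit was 5.28% and in replicate 2 it was 18.0%. Idh3g was called, and Pdha1 and Pdk3 had summits in replicate 2 alone. Outside the X chromosome 23 of 28 members were called. The part of the chromosome in the missing replicate 1 peaks of Pdha1 and Pdk3 was not tested.

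The promoters of the members were rich in CpG, as were those of called genes in general. CpG content is given as the observed number of CG pairs over the number expected from the C and G of the 300-base window around the first start. The median was 0.81 in the 28 members with a window, and 0.58 over 17492 protein-coding genes. In called genes it was 0.84 for the 21 members and 0.83 for all 5768, and in genes with no summit in either list it was 0.27. All genes were split into 4 equal classes by this ratio. Of the 13 members in the highest class 12 were called, against 65.7% of all genes of that class. In the next class 7 of 9 members were called, against 46.9%, and in the class below it 2 of 6, against 15.7%. That class holds Idh2 (0.57), not called by gene ends although both lists had a peak at its start. No member was in the lowest class, where 3.57% of genes were called. The 3 lowest ratios among the members were those of Suclg2 (0.41), Pdk4 (0.44) and Aco1 (0.47), which had a summit in replicate 2 alone, in neither list and in both. Dld had the highest ratio (1.14) and Pdk3, with a summit in replicate 2 alone, the second highest (1.01).

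**Figure D4:**
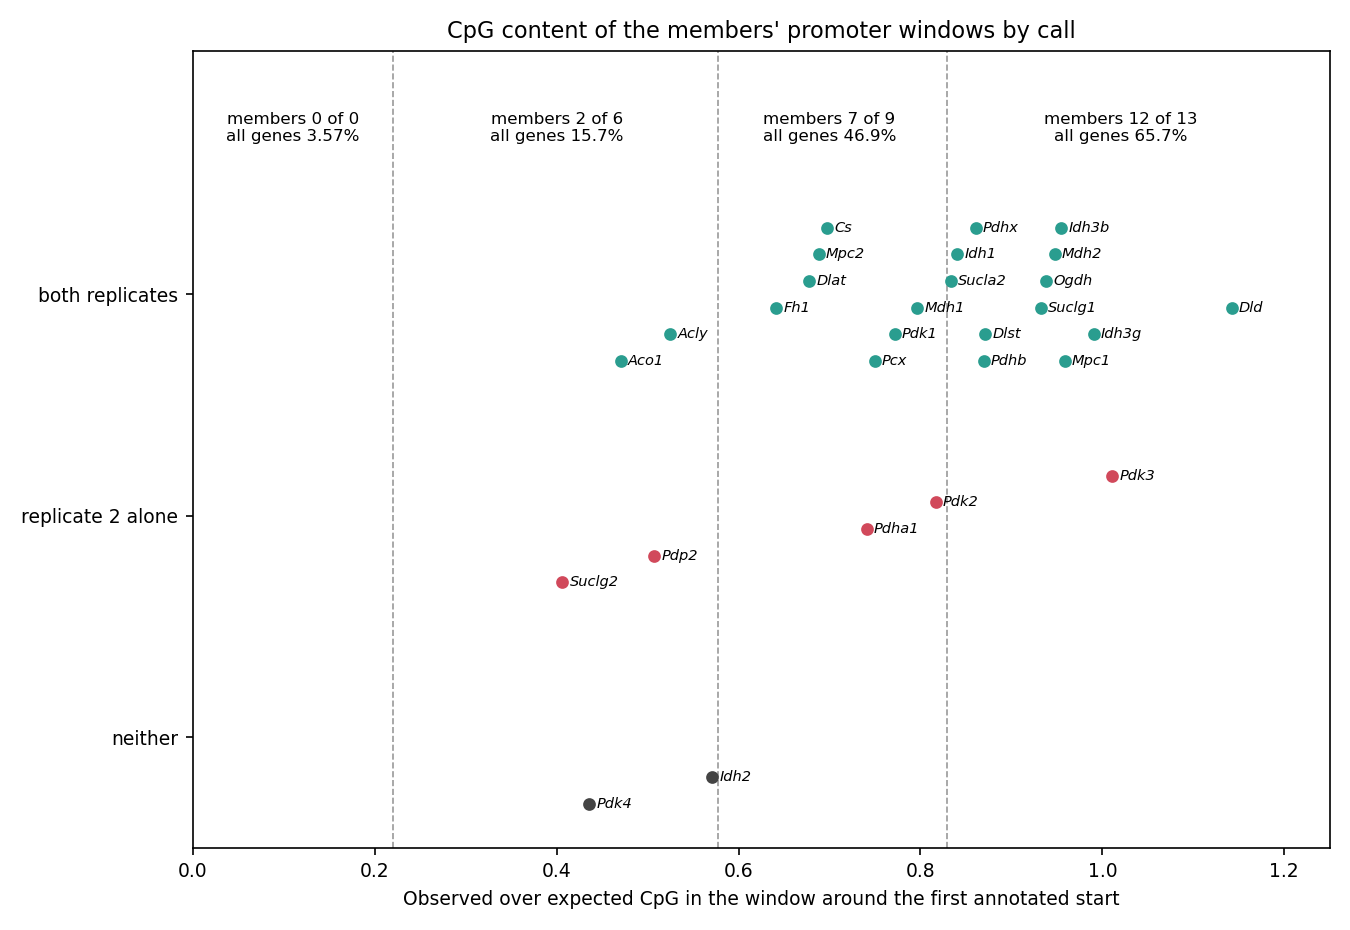
Observed over expected CpG in the promoter window of each of 28 members (horizontal axis) by whether the gene had a summit in both replicates, in replicate 2 alone or in neither (rows; the small vertical offsets carry no meaning). Dashed lines bound 4 equal classes of all protein-coding genes, with the called members and the share of all genes called printed above each. Called members are 12 of 13 in the highest class and 2 of 6 in the second lowest. Calls are by gene ends, so Idh2, with a peak at its start in both lists, is in the row for neither.

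Exact matches to 9 short motifs were counted in the same windows, on both strands, as a description. The CCAAT box bound by NFY was in 19 of 28 member windows (67.9%), against 40.9% of windows of all called genes and 39.2% of all 17492 windows. Windows with 2 or more CCAAT boxes numbered 10 of 28 (35.7%), against 13.5% of all windows. Among the members 13 of the 19 genes with the box and 8 of the 9 without it were called, and 9 genes are too few to read a difference from. Over all genes the box was about as frequent in windows of called genes (40.9%) as in all windows (39.2%). GGGCGGG (SP/KLF) was in 14 of 28 (50%), against 51.3% of windows of called genes and 34.0% of all windows. CCGGAAG (ETS) was in 4 (14.3%), which were Idh3b, Idh3g, Dlst and Mpc1, against 23.3% and 11.9%. CACGTG (E-box) was in Pdk2, Pdp2 and Pcx (10.7%), against 11.4% and 7.91%, and TGACGTCA (CRE) in Ogdh and Mdh2 (7.14%), against 4.21% and 2.33%. AAGATGGCG (YY1) was in Idh3g alone (3.57%), against 4.21% and 1.92%. No member window held the box TATAAA, found in 6.22% of windows of called genes and 13.3% of all windows, GCGCATGCG (NRF1), in 5.01% and 2.41%, or TCAAGGTCA (ERR), in 0.225% and 0.332%. In Suclg2, 2 matches to GGGCGGG share bases, and matches to different motifs were counted separately. Each motif was searched as a single fixed string, so other forms of the same site, such as those of NRF1, were not counted. Lack of a match is therefore not lack of a site. A match is not a bound site, and no motif was tested for a link to the peaks.

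**Figure D5:**
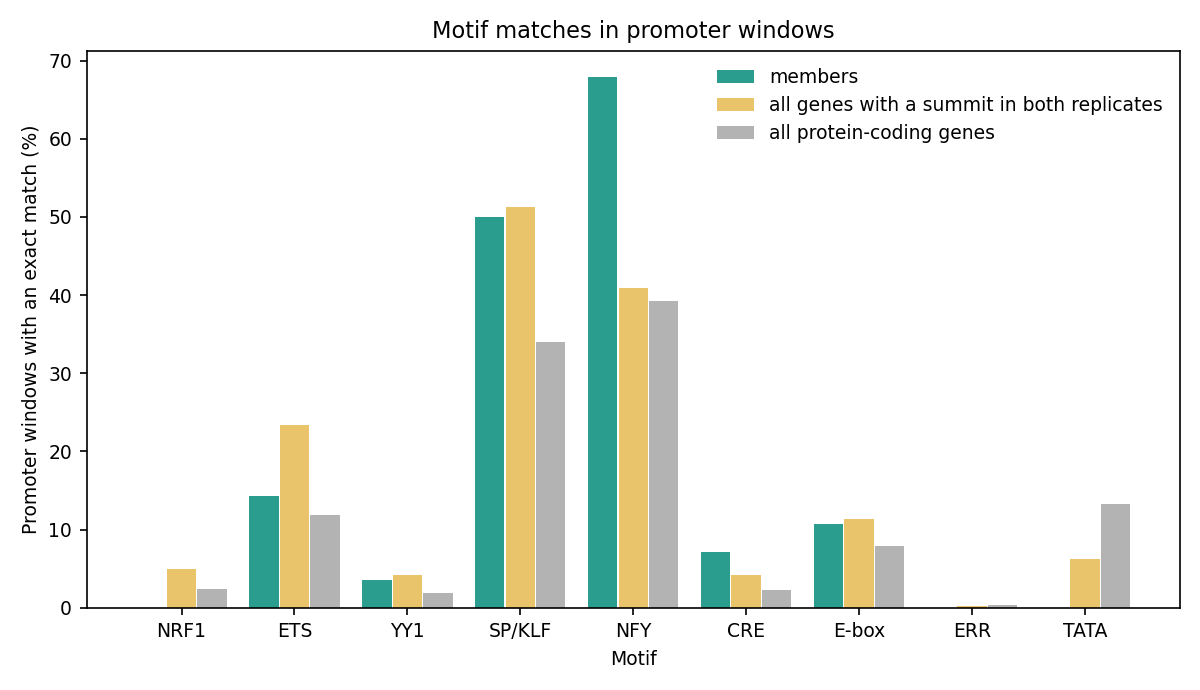
Share of promoter windows with an exact match to each of 9 motifs (percent, vertical axis starting at 0) in the 28 members with a window (green), in all genes with a summit in both replicates (yellow) and in all protein-coding genes (grey). The CCAAT box of NFY is in 67.9% of member windows against 39.2% of all, and the TATAAA box is in none of the member windows.

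Other genes of the pathway were described by the same rule, in 3 lists that hold none of the 31, and 21 of these 37 genes were called, against 31.9% of all genes. Of 14 further cycle and pyruvate enzyme genes, 8 were called. They included all 4 succinate dehydrogenase subunit genes, Sdha, Sdhb, Sdhc and Sdhd. Ogdhl, Pdha2, Me1, Me3 and Ldhb had no summit in reach in either list. Pdha2 is a testis form of the E1 alpha subunit and Ogdhl a relative of Ogdh, and their nearest summits were 1182473 and 119964 bp from an end in replicate 1. Of 12 genes for lipoate attachment, iron-sulphur delivery and succinate dehydrogenase assembly, 6 were called, led by Lias, the lipoate synthase, with 7.23 (percentile 97.1) and 10.1 (percentile 94.9). The Lias summits were also in reach of Rpl9 in both replicates, so these values cannot be assigned to Lias alone. Sdhaf1, Sdhaf3, Sdhaf4 and Bola3 had a summit in replicate 2 alone, Iba57 in replicate 1 alone, and Lipt1 in neither. The Iba57 summits were at 987 bp from the gene end in replicate 1 and 1022 bp in replicate 2, on either side of the limit, and 165 and 200 bp from its start. Of 11 genes that feed glutamate and aspartate into the cycle, 7 were called, led by Slc25a12, a mitochondrial aspartate and glutamate carrier, and Gpt had no summit in reach in either list. The strongest peak of Slc25a12 was at its 3′ end in replicate 1 and at its 5′ end in replicate 2, so its rank joins different peaks.

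Some peaks lay elsewhere inside the members, and no share over all genes is given for them. Besides Idh2 and the second start of Idh1, summits inside a member and more than 1000 bp from both its ends were found in both lists at overlapping peaks in Ogdh and Dlst. In Ogdh they lay 8073 bp from the nearer end in replicate 1 (5.46, percentile 84.6) and 8321 bp in replicate 2 (3.62, percentile 19.01). In Dlst they lay 4371 bp from the nearer end in replicate 1 (4.01, percentile 49.5) and 4268 bp in replicate 2 (3.93, percentile 28.7). In Ogdh this inner peak had a higher fold enrichment than the peak at the start in replicate 1 (5.46 against 3.30), and in replicate 2 a lower one (3.62 against 16.2). In Cs a replicate 1 summit 1045 bp from the nearer end also had a higher value than the one at the start (4.83 against 4.69). Further inner summits lay in Pdhx, Cs, Idh1, Dlst and Mdh2.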

How the data were processed

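Flag ChIP-seq peak lists of 2 libraries of lineage-negative marrow cells were used. Fixation was 10 min in 1% formaldehyde per the labels' protocols, and 10 ng of DNA went into a Vazyme TruePrep kit, which is transposase-based, with 16 cycles and selection at 100 to 500 bp. The submitters' processing notes name cutadapt, Trimmomatic, FastQC, Bowtie2, MACS2, ChIPseeker and mm10, without versions or order. The sources used here give neither the control nor the cutoff for calling. Peaks were called per library, as the deposited peak names show. The authors' fold enrichment is a linear ratio, and the caller's significance stands in the deposited lists as −log10 p and −log10 q. The smallest −log10 q was 1.31 and 1.30. The deposited score is 10 times −log10 q and was not used.

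A summit is the peak start plus the summit offset. Gene bounds are those of 21887 protein-coding RefSeq genes (GRCm38.p6). The 14 and 20 peaks on other sequences were left out. Where several peaks were in reach, the one with the highest fold enrichment was described. Members and lists were chosen with earlier results of these data known. Every member is named, with full values for the 10 highest called members by the lower percentile, those in 1 list only and those in none. Of the related lists, the highest gene and those in neither list are named, except for items not reported here, and the others were named after their values were seen. Shares are descriptions without tests, and alternatives changed the cutoff, window, end rule, list length and replicates. The scoring was tested on simulated data with planted summits. Intervals cover the sampling of genes only. Python 3.11.15, numpy 2.4.6, pandas 2.3.3, scipy 1.17.1 and matplotlib 3.10.9 were used.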

Additional observations from a re-analysis of the deposited data

How the results depend on the processing

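The count of 24 called members was 17 to 25 under 9 of the 10 alternatives that kept both replicates, and 6 with a fold enrichment of at least 5 in both lists, where 9.52% of all genes were called. With −log10 q of at least 5, Pdhb, Pdk1, Aco1, Idh3b, Suclg1 and Pcx were lost and 18 members stayed, against 21.1% of all genes. The 500 bp window lost Mpc2 alone. Counts in replicate 2 alone were 5 as reported, 9 with −log10 q of at least 5 and 19 with a fold enrichment of at least 5. With lists of equal length 2 were in replicate 2 alone, and 1 member (Dlat) was in replicate 1 alone, against 0 as reported. The share of all genes in replicate 2 alone is given only for the reported setting (13.6%), so the other counts cannot be read as particular to the members. The further cycle enzymes (8 called as reported) gave 5, 3 and 3 with the q cutoff, the fold cutoff and single-gene summits, the lipoate and assembly genes (6) 3 and 2 with the first 2 of these, and the glutamate and aspartate genes (7) 4 and 1. With 1 replicate left out in turn, the members ranged from 24 to 29 and the 3 related lists from 8 to 9, 7 to 10 and 7 to 9. The fold cutoff removes more of replicate 1, whose values are lower. No paired analysis was possible because the input libraries were not analysed here. Without read counts, a missing peak cannot be told apart from one below the caller's cutoff.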
